A study of Homo sapiens with 27 samples.

Results

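The genes described here are a list of 6 symbols around plasminogen activation, followed in MCF10DCIS.com cells, and not the whole system. They are the activators PLAU and PLAT, the urokinase receptor PLAUR, and the serpins SERPINE2, SERPINB2 and SERPINB5. They were taken as a list of names, with no threshold on measured values, but with earlier results of these data known. They are 6 of the 60683 genes in the deposited tables. All 6 passed the filter on low counts, the lowest count of any of them in any library being 132, for SERPINB2. MCF10DCIS.com is a human breast epithelial line of the MCF10A family that forms lesions like ductal carcinoma in situ, labelled here as premalignant breast. The study asked how calcium oxalate crystals of different shape act on these cells. The 27 libraries form 6 groups: 7 libraries of control cells, and 4 for each crystal form. The forms are plates of calcium oxalate monohydrate (COM) and 4 shapes of calcium oxalate dihydrate, which are dumbbell-like (DB), spherical (SPH), thick bipyramidal (TK) and thin bipyramidal (TN). Every flask received 500000 cells, the crystals went in at 0.1 mg/mL after 6 h of culture, and how long they stayed is not stated. All groups share this 1 cell line and carry no stated genetic change. Whether the libraries of a group are separate cultures is not stated, and p-values here measure only the spread between them, which may be technical.

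Plasminogen is an inactive precursor that is cut to plasmin, a protease that digests fibrin and matrix proteins and activates other proteases. Urokinase, the product of PLAU, does this mainly at the cell surface, where PLAUR, a receptor anchored in the membrane by a lipid, holds it. The tissue-type activator, the product of PLAT, acts best on plasminogen bound to fibrin. Serpins stop such proteases by trapping them in a complex: SERPINE2 (glia-derived nexin) blocks thrombin and both activators, and SERPINB2 is an inhibitor of urokinase that largely stays inside the cell. SERPINB5 (maspin) is a member of the family without known trapping activity, typical of myoepithelial cells of the breast. Urokinase and its receptor are widely studied in breast cancer, where they are tied to invasion.

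The libraries held 13115649 to 38672448 counts (median 19251210). By the running number in its deposited name, each library falls in a block of 10, 12 or 5 numbers, here called library sets 1, 2 and 3. Nothing else is stated of what these blocks are. Every library lettered A or B is in set 1 apart from TK, and control G and every D library apart from TK and the control are in set 3. Set 2 has controls C, D, E and F, library C of COM, DB, SPH and TN, and TK as a whole. The library TN C had a mean fragment length of 297.0 nt, against at most 243.2 nt in the rest of set 2 and at least 257.8 nt in set 1, so its place in set 2 was not certain. Its running number, 11, is in the block of set 2. Its SERPINB2 level was 11.4 CPM (counts scaled to a common library size), near the set 2 controls (7.22 to 10.6) and below those of set 1 (33.4 and 35.9). Fits with TN C in set 1 may thus count a gap between sets as a TN difference. The library TN B carried transcripts of liver, with ALB at 659 CPM, against 8.82 CPM or less in the controls, and values for TN are also given without it. All 9 genes listed for basal breast epithelium were present in every library, at a summed 6380 to 8450 CPM. That list includes genes not limited to basal cells, such as CDH1 and EPCAM. Of the markers of other cell types, the fibroblast genes DCN, LUM, COL1A2 and COL3A1 and the leukocyte gene PTPRC did not pass 0.408 CPM in any library. Others were present at low levels, with COL1A1 at 7.17 to 13 CPM, CD68 at 3.31 to 21.1, CD14 at 1.68 to 7.73 and PECAM1 at 1.81 to 14.4, and LYZ reached 58.6 CPM in TN B. The luminal genes GATA3 (21.8 to 37.9 CPM) and FOXA1 (16.4 to 33.5 CPM) were present in every library. So was SERPINA1 of the hepatocyte list, at 46.6 to 272 CPM with a median of 125. Levels in bulk RNA cannot tell fewer cells of a kind from less RNA per cell.

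Set against control cells, the crystal forms fell into different patterns over these 6 genes. COM and DB libraries had more PLAU and more of the 3 serpins, and DB libraries also had more PLAUR. TK and TN libraries had less PLAT together with more PLAU, and TK libraries had less PLAUR. SPH libraries had no difference that passed the test. For PLAU, however, the log2 estimate was 0.31 for SPH and 0.29 for TK, and the TK call did not hold in every alternative fit. Each gene was tested in edgeR's quasi-likelihood model with the library set as a term, and was called where the Benjamini-Hochberg adjusted p, taken over all 16173 genes tested, fell below 0.05. In the joint test of the 6 groups all 6 genes were called, where 23.2% of all genes tested were called.

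For COM, 4 of the 6 genes were called higher and none lower, where 3.94% of all genes were called higher and 2.42% lower. The median log2 difference of the 6 was 0.33, against -0.0055 over all genes tested. For DB, 5 of 6 were called higher and none lower, against a background of 5.92% higher and 4.10% lower, and the median was 0.47, against -0.0047. For SPH, 0 of 6 were called in edgeR and 0 in DESeq2, and 1 of them (PLAU) had an unadjusted p under 0.05. In that comparison only 0.0804% of all genes were called higher and 0.0309% lower. For TK, 2 of 6 were called higher and 2 lower, against 8.04% higher and 7.33% lower. For TN, 1 of 6 was called higher and 1 lower, against 6.84% higher and 4.88% lower. The median over the 6 genes was 0.0047 in SPH (all genes -0.0047), 0.19 in TK (all genes -0.016) and -0.032 in TN (all genes -0.0032). The 5 comparisons share the same 7 control libraries, so they are not independent of each other. The list was chosen with earlier results of these data known, so the counts beside the background are a description and not a test.

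**Figure D1:**
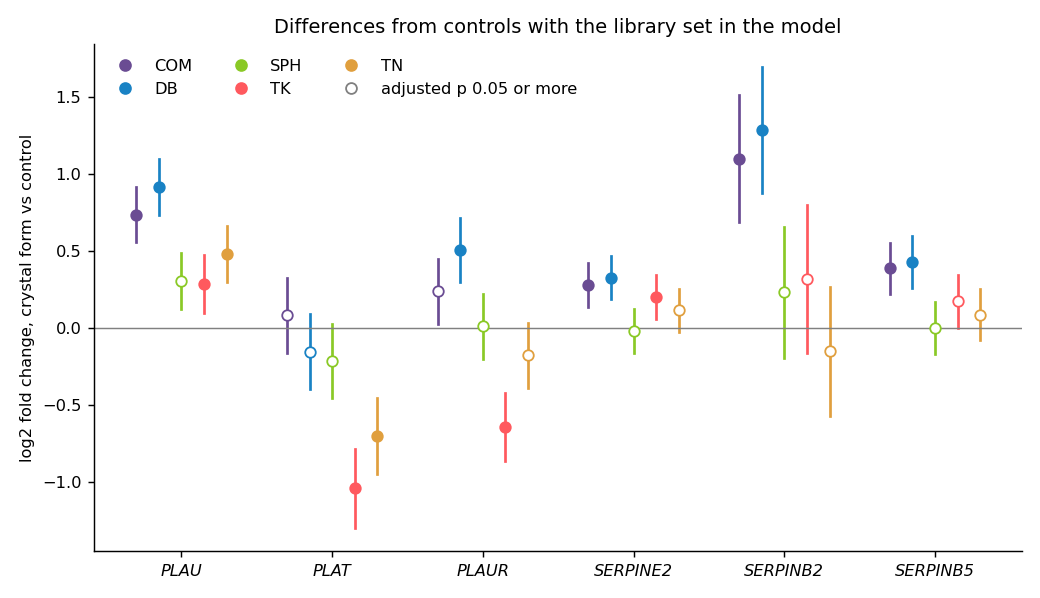
Log2 fold change of each of the 6 genes (x axis) in each crystal form against control, from the edgeR fit with the library set in the model. Points are estimates, bars are 95% intervals, and filled points passed an adjusted p of 0.05; PLAU is above 0 for all 5 forms, and PLAT is lowest for TK (-1.04) and TN (-0.70).

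PLAU, the urokinase gene (ENSG00000122861, chromosome 10, 73909177 to 73917497, plus strand, GENCODE 29 on GRCh38), was higher in COM, DB, TN and TK cells than in controls. In the 7 controls it ran from 112.5 to 175 CPM with a median of 132. The COM libraries A to D held 305, 316, 194 and 240.2 CPM. Each of these was above all 7 controls. The DB libraries held 287, 279, 237 and 386 CPM, and TN 226, 219, 193 and 235. Both groups also lay above all controls, and DB D was the highest of the 27 libraries. SPH libraries held 233, 205, 162 and 176 CPM, and TK 151, 156, 161 and 145 CPM. These overlapped the controls as a whole, but not the controls of their own library set: in 20 of 20 crystal-treated libraries PLAU was above every control of its set, for SPH D by a small step (176 against 172 CPM in control G). Set 1 has only 2 controls and set 3 only 1. The share of all genes with such a separation was not counted, here or for the genes below.

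The log2 difference of PLAU from control was 0.92 (SE 0.09, adjusted p = 1.9e-07) for DB, a 1.89-fold higher level. It was 0.74 (SE 0.09, adjusted p = 7.1e-06) for COM, or 1.67-fold, and 0.48 (SE 0.09, adjusted p = 0.00086) for TN, or 1.40-fold. For TK it was 0.29 (SE 0.09, adjusted p = 0.033), a call that was lost without control F or without TK A, B or C (adjusted p up to 0.087) and with per-gene length offsets (adjusted p = 0.082). Without the set term, which sets TK against controls of all sets, it was 0.088 (SE 0.14, adjusted p = 0.71). For SPH it was 0.31 (SE 0.09, unadjusted p = 0.0019, adjusted p = 0.36). Without TN B, the TN difference was 0.52 (SE 0.10, adjusted p = 0.00094), and with TN C counted in set 1 it was 0.36 (SE 0.10, adjusted p = 0.013). A gene on the opposite strand, C10orf55, overlaps PLAU, and the strand setting of the counting is not known. C10orf55 held 2050 counts over the 27 libraries, against 132497 for PLAU.

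Within library sets, PLAU was 0.86 (SE 0.09), 0.66 (SE 0.09) and 0.48 (SE 0.12) above the controls of sets 1, 2 and 3 for COM, on the log2 scale. For DB the values were 0.72 (SE 0.09), 0.94 (SE 0.09) and 1.16 (SE 0.12), so that the order over the sets was opposite to that of COM. For TN they were 0.38, 0.64 and 0.45. SPH showed 0.35 and 0.40 in sets 1 and 2 and 0.031 (SE 0.12) in set 3. The test of whether the differences of COM, DB, SPH and TN varied with the set gave an edgeR adjusted p of 0.091 for PLAU, and 0.544% of all genes passed that test.

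**Figure D2:**
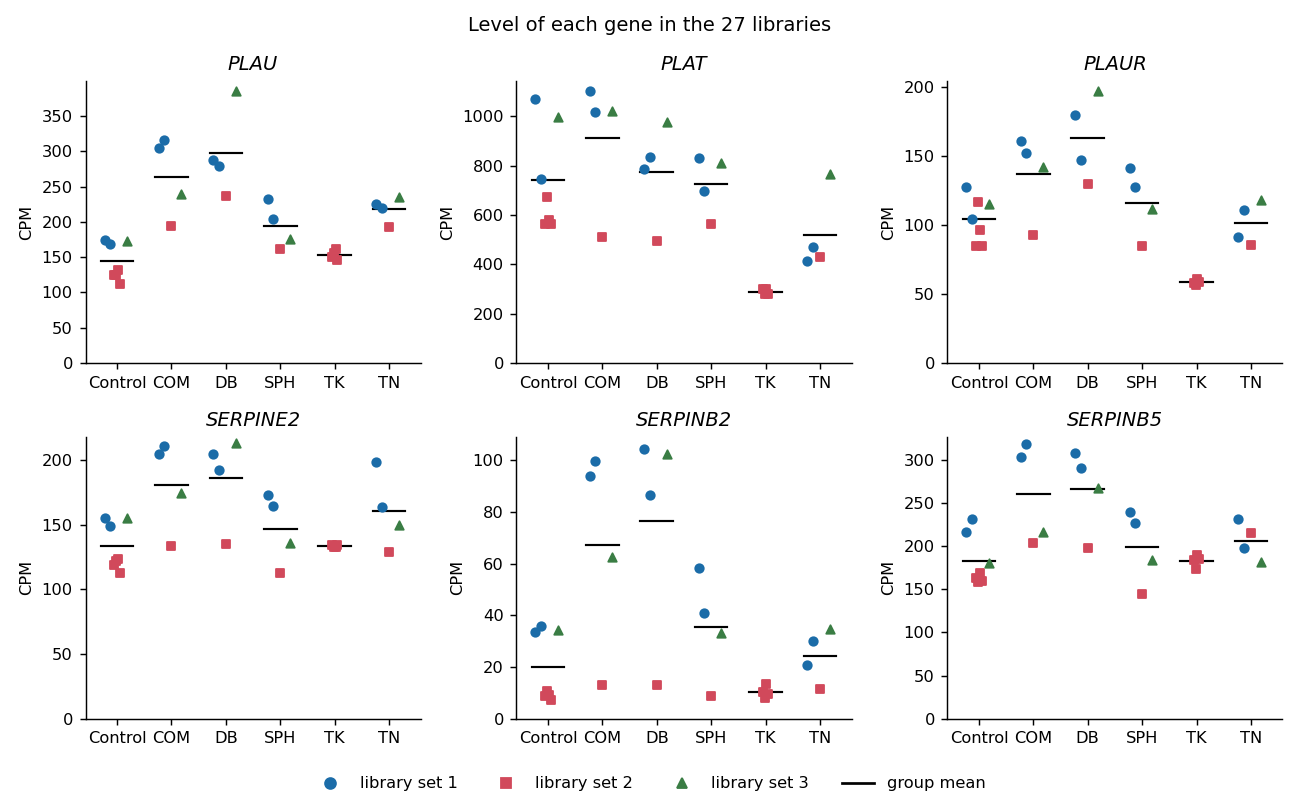
CPM of each gene (y axis, from 0) in the 27 libraries by group, with the library set as shape and colour and the group mean as a line. PLAT in the 4 TK libraries sits between 278 and 301 CPM, under every other library, and SERPINB2 in set 2 does not pass 13.55 CPM in any group.

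PLAT, the gene of the tissue-type activator (ENSG00000104368, on chromosome 8), was called lower in both bipyramid groups. Controls ran from 564 to 1070 CPM with a median of 671. TK libraries held 299, 278, 301 and 279 CPM. No other library of the series was as low, and the 4 controls of the same set held 564 to 671 CPM. TN libraries held 411, 472, 431 and 766 CPM, of which A, B and C lay below all controls, and D lay inside their range but below control G of its own set (995 CPM). COM libraries held 1101, 1017, 510.5 and 1022 CPM, DB 787, 833, 493.5 and 978, and SPH 830.0, 697, 565 and 808. In each of those 3 forms the set 2 library C was the lowest, and the set 2 controls were also low (564 to 671 CPM).

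The log2 difference of PLAT from control was -1.04 (SE 0.12, adjusted p = 8.3e-06) for TK, a 2.06-fold lower level, and -0.70 (SE 0.12, adjusted p = 0.00045) for TN, 1.63-fold lower. For COM it was 0.08 (95% interval -0.16 to 0.33), for DB -0.15 (-0.40 to 0.09) and for SPH -0.21 (-0.46 to 0.029), with adjusted p of 0.77, 0.46 and 0.84. Within sets, TN was -1.04 (SE 0.14) below the controls in set 1, -0.46 (SE 0.16) in set 2 and -0.38 (SE 0.19) in set 3. The adjusted p of those values were 0.00013, 0.091 and 0.80, and the test of the difference between sets for TN gave an adjusted p of 0.15. Without the set term the TN difference was -0.51 (SE 0.21, adjusted p = 0.18), so that call rested on the comparison within sets. It was -0.64 (SE 0.13, adjusted p = 0.0023) without TN B and -0.89 (SE 0.12, adjusted p = 3.4e-05) with TN C in set 1.

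Compared per transcript length, in deposited TPM (transcript share scaled for length), PLAT had the highest level of the 6 genes in 27 of 27 libraries and SERPINB2 the lowest in 27 of 27. The median over libraries was 345 TPM for PLAT, 122 for PLAUR, 111 for PLAU, 101 for SERPINB5, 91.9 for SERPINE2 and 19.4 for SERPINB2. The 4 genes in the middle changed places from library to library, so their order did not hold beyond the spread. The order PLAT, PLAUR, PLAU, SERPINB5, SERPINE2, SERPINB2 was the most frequent, in 7 libraries.

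The ratio of PLAT to PLAU transcripts joins the 2 movements in 1 value per library and is given as a description. In TPM it ran from 3.98 to 5.62 in the 7 controls, with a median of 4.72. It was 1.44 to 1.60 in the TK libraries and 1.35, 1.41, 1.57 and 3.03 in the TN libraries. It was 1.74 to 2.39 in DB, 2.41 to 3.91 in COM and 2.74 to 4.23 in SPH. PLAT transcripts outnumbered those of PLAU in every library, and every crystal-treated library had a lower ratio than every control of its own set. Those controls number only 2 in set 1 and 1 in set 3, and other pairs of genes were not compared in this way.

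**Figure D3:**
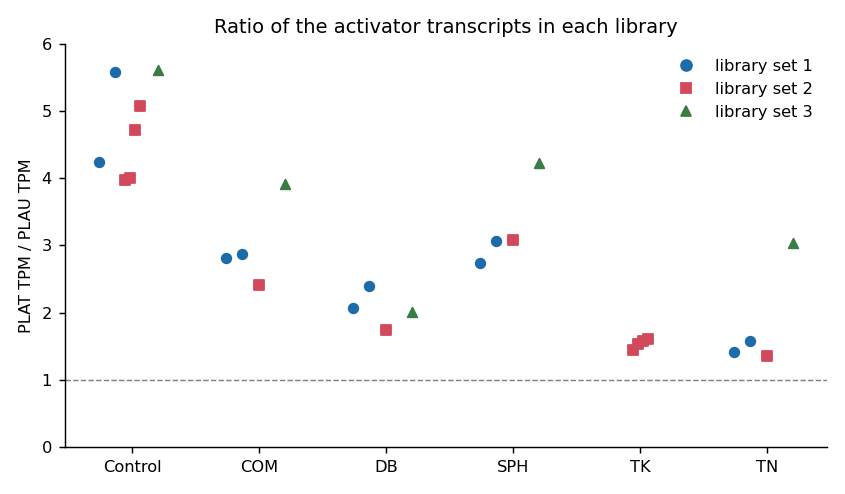
Ratio of PLAT TPM to PLAU TPM (y axis, from 0) in each library by group, with the library set as shape and colour and a dashed line at a ratio of 1. Controls lie between 3.98 and 5.62 and TK libraries between 1.44 and 1.60; TN D, at 3.03, stands above the other TN libraries.

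PLAUR, which encodes the receptor that holds urokinase at the cell surface (ENSG00000011422, chromosome 19, 43646095 to 43670547, minus strand), went opposite ways in DB and TK cells. Controls ran from 84.8 to 127.5 CPM, with a median of 105. DB libraries held 179.7, 147, 130 and 198 CPM, all above every control. TK libraries held 58.3, 56.4, 61.2 and 58.6 CPM, all below every control and close to each other. COM libraries held 161, 152, 92.7 and 142 CPM, SPH 141, 128, 84.6 and 112, and TN 91.2, 111, 85.5 and 118. These 3 groups overlapped the controls, COM only through its library C. Myeloid cells also express PLAUR. The 6 myeloid markers summed to 8.96 to 22.1 CPM in controls (median 13.9), 9.53 to 28.8 in DB (median 18.9, highest in DB D), 10.1 to 26.4 in COM (median 23.5) and 7.99 to 9.37 in TK (median 8.35). Of these markers, CD68 ran from 3.31 to 21.1 CPM over all libraries and CD14 from 1.68 to 7.73. PTPRC did not pass 0.171 CPM in any library and CSF1R did not pass 1.03. The part of myeloid cells in the PLAUR differences was not tested.

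The log2 difference of PLAUR from control was 0.51 (SE 0.10, adjusted p = 0.0023) for DB, a 1.42-fold higher level, and -0.65 (SE 0.11, adjusted p = 0.00023) for TK, a 1.56-fold lower level. The DB value was 0.49, 0.44 and 0.78 within sets 1, 2 and 3, with adjusted p of 0.083, 0.35 and 0.051. For COM it was 0.24 (SE 0.10, adjusted p = 0.18), with 0.43 in set 1, -0.046 in set 2 and 0.30 in set 3. For SPH it was 0.011 (95% interval -0.20 to 0.22) and for TN -0.18 (-0.39 to 0.032), with adjusted p of 0.996 and 0.28. Without TN B the TN value was -0.19 (adjusted p = 0.29). The urokinase gene and its receptor thus both passed the test upward in DB, while in TK the former was called higher and the latter lower.

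**Figure D4:**
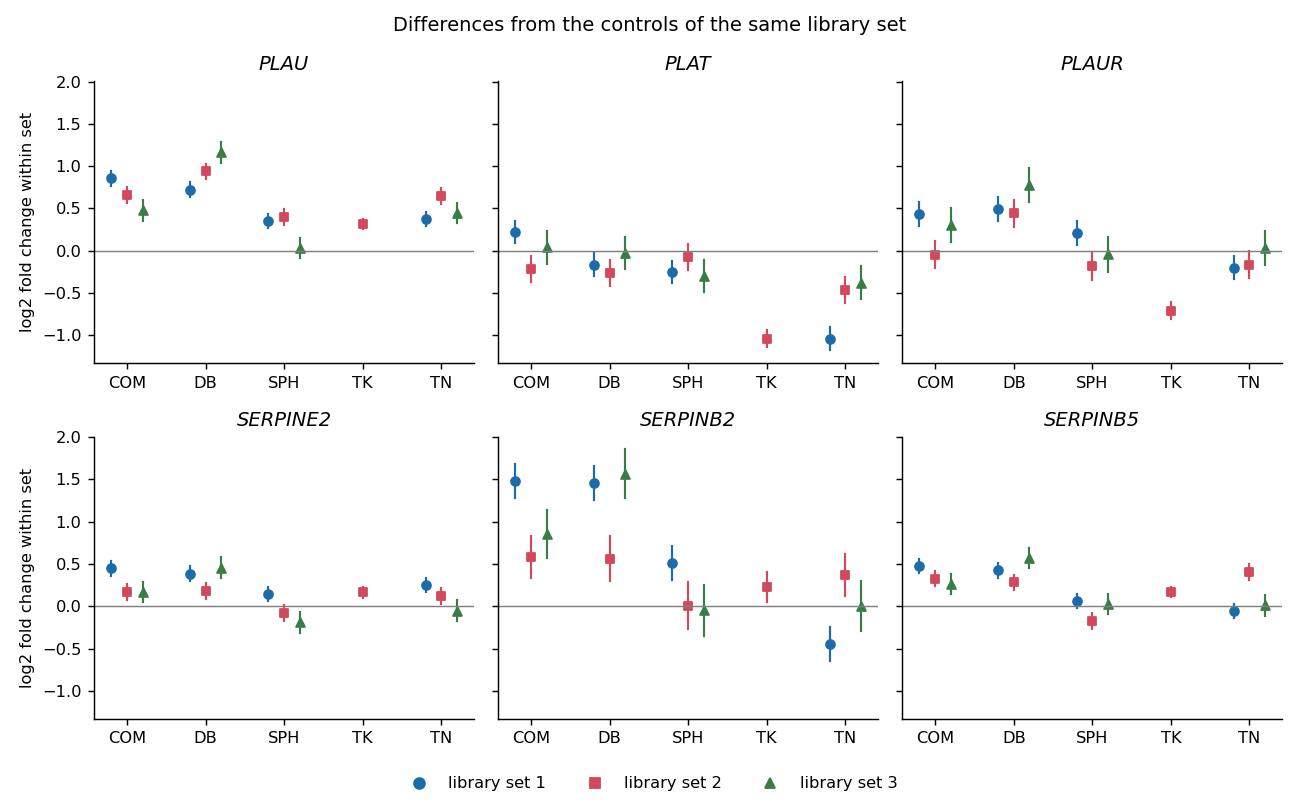
Log2 fold change of each gene against the controls of the same library set, by crystal form, with bars of ±1 SE from the fit with 1 mean per group and set. TK has libraries in set 2 only; PLAU for DB is 0.72, 0.94 and 1.16 in sets 1, 2 and 3, and PLAT for TN is -1.04, -0.46 and -0.38.

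SERPINE2, a secreted inhibitor of thrombin and of both activators (ENSG00000135919, chromosome 2, 223975112 to 224039319, minus strand), had small differences. Controls ran from 112.6 to 155 CPM with a median of 124. COM libraries held 204.5, 211, 134 and 175 CPM and DB 205, 192, 135 and 213. In both forms A, B and D were above all controls, and C was above the controls of its set. SPH libraries held 173, 164, 113 and 136 CPM, TK 134, 132.5, 133 and 134, and TN 199, 163, 129 and 149.7. The log2 difference was 0.33 (SE 0.07, adjusted p = 0.0032) for DB and 0.28 (SE 0.07, adjusted p = 0.012) for COM. The COM call was lost without COM B (adjusted p = 0.059) and without the set term (0.077). Within sets 2 and 3 the difference was 0.168 and 0.169 for COM, and 0.18 and 0.46 for DB, with 1 library of the form in each. For TK the difference was 0.20 (SE 0.07, adjusted p = 0.0499), at the edge of the threshold, and that call was lost in 15 of the 27 fits that leave out 1 library (adjusted p up to 0.089), among them each fit without a TK library and those without control A, B, C, F or G, COM A, B or C, DB A or C, or SPH A. Neither SPH (-0.021, 95% interval -0.16 to 0.12) nor TN (0.11, -0.026 to 0.25) passed the test, and TN without TN B stood at 0.15 (adjusted p = 0.17).

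SERPINB2, the inhibitor of urokinase that stays largely in the cytoplasm (ENSG00000197632, chromosome 18, 63871692 to 63903890, plus strand), had the largest fold changes of the 6 genes for COM and DB. It also had the largest difference between library sets. Controls A and B of set 1 held 33.4 and 35.9 CPM and control G of set 3 held 34.5, whereas controls C to F of set 2 held 8.82, 10.6, 9.04 and 7.22. COM libraries A, B and D held 93.7, 99.7 and 62.4 CPM and COM C, in set 2, 13.2. DB libraries A, B and D held 104, 86.4 and 102 CPM and DB C 13.01. Each of these 8 libraries was above every control of its set. SPH libraries A, B and D held 58.3, 40.7 and 33.3 CPM and SPH C 8.84, TN libraries A, B and D held 20.9, 30.1 and 34.6 and TN C 11.4. TK libraries, all in set 2, held 10.2, 7.96, 13.5 and 9.56 CPM and overlapped the controls there.

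The log2 difference of SERPINB2 from control was 1.29 (SE 0.20, adjusted p = 0.00022) for DB, a 2.44-fold higher level, and 1.10 (SE 0.20, adjusted p = 0.0010) for COM, or 2.14-fold. Without the set term the COM difference was 1.73 (SE 0.52) and not called (adjusted p = 0.064). Within sets 1, 2 and 3 the difference was 1.46 (SE 0.20), 0.56 (SE 0.26) and 1.57 (SE 0.29) for DB, and 1.48 (SE 0.20), 0.58 (SE 0.25) and 0.86 (SE 0.29) for COM. In set 2 neither form passed the test for this gene (adjusted p of 0.55 and 0.36). The test of variation between sets gave an adjusted p of 0.13. For SPH the difference was 0.23 (95% interval -0.19 to 0.66), for TK 0.32 (-0.16 to 0.80) and for TN -0.15 (-0.57 to 0.27). Of these, TK passed the test where no filter on low counts was used (adjusted p = 0.030). TN passed it downward with TN C counted in set 1 (-0.72, SE 0.24, adjusted p = 0.046). TN C held 11.4 CPM, against 33.4 and 35.9 CPM in the set 1 controls. That call therefore cannot be told apart from the gap between sets. Without TN B the TN difference was -0.085 (adjusted p = 0.85).

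SERPINB5, the maspin gene (ENSG00000206075, chromosome 18, 63476761 to 63505085, plus strand), followed the other serpins in COM and DB. Controls ran from 158.5 to 231 CPM with a median of 169. COM libraries held 303, 318, 204 and 216 CPM and DB 309, 291, 198 and 267.5, each above every control of its set. SPH libraries held 240.1, 227, 144 and 183.5 CPM, TK 184, 174, 189 and 185, and TN 231, 198, 215 and 181. The 4 TK libraries lay above the controls of set 2 (158.5 to 169 CPM) but inside the range of all controls. The log2 difference was 0.43 (SE 0.08, adjusted p = 0.0016) for DB and 0.39 (SE 0.08, adjusted p = 0.0039) for COM. It was 0.17 (SE 0.08, adjusted p = 0.17) for TK, which passed the test with TN C counted in set 1 (0.21, SE 0.06, adjusted p = 0.022) or without TN C (adjusted p = 0.019). It was -0.0017 (95% interval -0.17 to 0.17) for SPH and 0.088 (-0.079 to 0.25) for TN. For TN it was -0.060 within set 1, 0.41 (SE 0.09, adjusted p = 0.020, called) in set 2, where the only TN library is TN C, and 0.0099 in set 3. Without TN B the TN value was 0.17 (adjusted p = 0.17). The COM call was lost with the letter of the title as a block in place of the set (0.43, adjusted p = 0.064). COM stood at 0.33 within set 2 and 0.26 within set 3, and DB at 0.28 within set 2.

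For the members with higher levels in COM or DB, the 250 bases before each gene start listed by RefSeq (GRCh38.p14) were searched on both strands for the letters TGANTCA, the core bound by AP-1 factors, and for the NF-kB consensus. A table of promoters matched 5 of the 6 members by symbol, with 7 starts. The letters TGANTCA were found once each before the RefSeq start of PLAUR (186 bases), SERPINB2 (102 bases) and SERPINB5 (146 bases), and not in either window of PLAU or of SERPINE2. GENCODE 29 has longer transcripts of these 3 genes, so that all 3 matches lie inside the gene spans given above, and 250, 5 and 197 bases of the windows of PLAUR, SERPINB2 and SERPINB5 lie in exons. Of all 35116 windows of that length in the table, 6.57% hold these letters. The NF-kB consensus was in none of the 7 windows and in 9.96% of all. The stretches shown are those with a match, among the 5 genes called higher in DB. The match is in capitals, and each reads 5′ to 3′ on the strand of the gene. A match is a run of letters and not a measured site.
PLAUR, chr19:43670338-43670366, minus strand: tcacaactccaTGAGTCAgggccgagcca
SERPINB5, chr18:63476801-63476829, plus strand: taacttcagccTGAATCAtttctttcaat
SERPINB2, chr18:63887455-63887699, plus strand: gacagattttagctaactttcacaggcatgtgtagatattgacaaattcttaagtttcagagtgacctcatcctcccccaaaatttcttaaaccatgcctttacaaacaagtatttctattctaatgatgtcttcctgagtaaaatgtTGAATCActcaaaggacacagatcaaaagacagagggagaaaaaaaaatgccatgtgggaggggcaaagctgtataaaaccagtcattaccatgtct

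The forms were also compared with each other at their common dose of 0.1 mg/mL, over 10 pairs and so 60 tests of the 6 genes. Of these, 24 were called with p adjusted within each pair, and 28 with p adjusted over the 10 pairs together. Of the 24 calls, 14 held in each of the 27 fits that leave out 1 library, namely PLAU, PLAUR and PLAT for COM against TK, the same genes and SERPINB2 for DB against TK, PLAT and SERPINB2 for COM against TN, PLAU, PLAUR and SERPINB2 for DB against TN, and PLAUR and PLAT for SPH against TK. In every call the first-named form of these pairs was higher. Without the set term 11 of the 24 calls held, which are the 10 against TK and PLAUR for DB against TN. TK is in set 2 only, where all 6 genes were lower than in set 1. That fit therefore adds the gap between sets to each comparison with TK, in the direction of the call. It cannot show that the 10 differences from TK stand apart from the set. With TN C in set 1, 20 of the 24 calls held, and SERPINB2 for DB and COM against TK did not (adjusted p = 0.074 and 0.18). Without TN B, the calls against TN held other than PLAUR for COM and SERPINB5 for DB.

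DB and TK differed in 4 of 6 genes, where 17.8% of all genes were called. PLAUR was 1.15 higher on the log2 scale in DB than in TK (SE 0.13, adjusted p = 2.0e-06), PLAT 0.89 (SE 0.15, adjusted p = 0.00020), PLAU 0.63 (SE 0.11, adjusted p = 0.00034) and SERPINB2 0.96 (SE 0.27, adjusted p = 0.013). COM and TK also differed in 4 of 6, where 14.5% of all genes were called. There PLAT was 1.12 higher in COM (SE 0.15, adjusted p = 3.1e-05), PLAUR 0.88 (SE 0.13, adjusted p = 5.8e-05) and PLAU 0.45 (SE 0.11, adjusted p = 0.0066), and SERPINB2 passed narrowly (0.78, SE 0.26, adjusted p = 0.047), a call lost in 19 of the 27 fits without 1 library. Comparisons with TK rest on the set term, since the other forms have 1 library each in set 2. SERPINE2 was not called in either pair, at 0.13 (95% interval -0.047 to 0.30) for DB and 0.078 (-0.095 to 0.25) for COM.

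DB and TN differed in 5 of 6 genes, where 10.3% of all genes were called. SERPINB2 was 1.44 higher in DB (SE 0.22, adjusted p = 0.00030), PLAUR 0.68 (SE 0.11, adjusted p = 0.00048) and PLAT 0.55 (SE 0.13, adjusted p = 0.0084, lost without TN A). PLAU (0.44, SE 0.10) and SERPINB5 (0.34, SE 0.09) were also called, the latter lost without DB D, TN A or TN B. COM and TN differed in 3 of 6, where 5.03% of all genes were called, with SERPINB2 1.25 higher in COM (SE 0.22, adjusted p = 0.0031), PLAT 0.79 (SE 0.13, adjusted p = 0.0020) and PLAUR 0.42 (SE 0.11, adjusted p = 0.029, lost without COM A or B or TN A or B). In the COM and TN pair PLAU was not called, at 0.26 (95% interval 0.054 to 0.46, adjusted p = 0.13). SPH and TK differed in PLAT (0.83 higher in SPH, SE 0.14, adjusted p = 0.0013) and PLAUR (0.66, SE 0.13, adjusted p = 0.0033), where 5.60% of all genes were called.

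Spheres also differed from dumbbells, the other rounded dihydrate form. PLAU was 0.61 higher in DB than in SPH (SE 0.10, adjusted p = 0.0046, lost without SPH D at 0.067), SERPINB2 1.05 (SE 0.22, adjusted p = 0.029), SERPINB5 0.43 (SE 0.09, adjusted p = 0.034) and SERPINE2 0.35 (SE 0.08, adjusted p = 0.040). These are 4 of 6 genes where 0.247% of all genes, 40 of 16173, were called. None of the 4 held without the set term (adjusted p = 0.36 for PLAU and 0.73 to 0.80 for the serpins), and length offsets ended those of SERPINE2 (0.063) and SERPINB5 (0.057). The 3 serpin calls of this pair were each lost without DB A, DB D, or SPH B, C or D, at adjusted p up to 0.33. COM and SPH differed in PLAU (0.43, SE 0.10, adjusted p = 0.036) and SERPINB5 (0.39, SE 0.09, adjusted p = 0.041), where 0.544% were called. Those 2 calls were lost in 10 and 19 of the 27 fits that leave out 1 library, in both cases without COM A or B or SPH B, C or D (adjusted p up to 0.24 and 0.22).

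COM and DB were not told apart in any of the 6 genes, where 0.198% of all genes were called and 1 of the 6 (PLAUR) had an unadjusted p under 0.05. The 95% interval of COM minus DB on the log2 scale was -0.38 to 0.022 for PLAU, -0.50 to -0.041 for PLAUR, -0.032 to 0.50 for PLAT and -0.62 to 0.25 for SERPINB2. The thick and thin bipyramids were likewise not told apart, where 0.216% of all genes were called. TK minus TN ran from -0.63 to -0.045 for PLAT and from -0.72 to -0.21 for PLAUR (unadjusted p = 0.00093, adjusted p = 0.14), so that a lower PLAUR in thick than in thin bipyramids passed only with p adjusted over the 10 pairs (0.029). No gene of the 6 was called between SPH and TN, where 1.27% of all genes were called, and PLAT came nearest (0.49, SE 0.13, adjusted p = 0.057, or 0.027 adjusted over the 10 pairs). In DESeq2 the number of calls over all 10 pairs was 30 in place of 24.

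Library set 2 had lower levels of all 6 genes than set 1 at equal group. The log2 difference was -2.20 (SE 0.17) for SERPINB2, -0.57 (SE 0.09) for PLAT, -0.50 (SE 0.05) for SERPINE2, -0.46 (SE 0.06) for SERPINB5, -0.43 (SE 0.07) for PLAU and -0.42 (SE 0.08) for PLAUR. Each was called, where 27.4% of all genes were called. Set 3 against set 1 was called for SERPINB5 alone of the 6 (-0.32, adjusted p = 0.0055). Mean fragment length was also shorter in set 2 without TN C (197.6 to 243.2 nt) than in set 1 (257.8 to 319.1 nt). It was likewise shorter in set 3 (215.4 to 247.7 nt), where only SERPINB5 was called against set 1. The part of fragment length in these differences was not tested. TK exists in set 2 only, so its comparison with controls rests on controls C to F of that set and on the set term, and whether a TK difference would be the same in another set cannot be told apart from the set.

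Around the plasminogen system, 41 other genes were followed in 6 lists, of which 31 passed the filter and 14 were called in the joint test, where 23.2% of all genes were called. The lists include 8 clade B serpins taken by their position on chromosome 18 and 5 genes taken by a domain shared with PLAUR. Those genes were not taken for a part in plasminogen activation. PLG, the plasminogen gene itself, held at most 9 counts in any library and did not pass. Its docking proteins ANXA2, S100A10, ENO1 and PLGRKT were present, at mean levels of 5110, 845, 3120 and 27 TPM, and none of the 4 was called in any form. Of the 31 tested genes, 2 were called higher and 0 lower for COM (all genes 3.94% and 2.42%), 4 and 0 for DB (5.92% and 4.10%), and 0 and 0 for SPH (0.0804% and 0.0309%). For TK 2 were called higher and 7 lower (all genes 8.04% and 7.33%), and for TN 4 higher and 4 lower (6.84% and 4.88%). The median log2 difference over the 31 was 0.067 in COM and 0.0019 in DB. It was -0.017 in SPH, -0.15 in TK and -0.092 in TN.

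Among the receptor partners, ITGB3, MRC2 and ITGB5 were called lower in both bipyramid groups. ITGB3, an integrin subunit of the vitronectin receptor, had a mean of 126 ± 16.1 CPM (SD, n = 7) in controls, 67.4 ± 4.32 (n = 4) in TK and 78.8 ± 27.2 (n = 4) in TN. Its log2 differences were -0.996 (SE 0.13, adjusted p = 2.3e-05) for TK and -0.62 (SE 0.13, adjusted p = 0.0018) for TN. MRC2, a collagen receptor that associates with the urokinase receptor, stood at 39.0 ± 5.70 CPM in controls, 18.2 ± 0.856 in TK and 28.4 ± 6.47 in TN. That is -0.99 (SE 0.14, adjusted p = 3.6e-05) for TK and -0.54 (SE 0.12, adjusted p = 0.0059) for TN. ITGB5, another integrin subunit that binds vitronectin, was at -0.59 (SE 0.08, adjusted p = 6.4e-05) for TK and -0.39 (SE 0.08, adjusted p = 0.0029) for TN. In TN the MRC2 and ITGB5 differences were not called within set 2 or set 3, and that of ITGB3 was -1.02 (SE 0.10) in set 1, -0.43 (SE 0.11) in set 2 and -0.068 (SE 0.14) in set 3. ITGB3 passed the test of variation between sets (adjusted p = 0.026 jointly and 0.024 for TN). Without TN B the TN values were -0.54 for ITGB3, -0.48 for MRC2 and -0.33 for ITGB5, all called, and without the set term MRC2 was not called for TN (adjusted p = 0.061). ITGA5, a fibronectin receptor subunit, was higher in COM (0.48, SE 0.10, adjusted p = 0.0034) and DB (0.47, SE 0.10, adjusted p = 0.0036), and its TN call (0.31, adjusted p = 0.041) was lost in 14 of the 27 fits without 1 library, those without TN A, C or D included.

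Of the other inhibitors, SERPINA5, the protein C inhibitor that also binds urokinase, was -0.84 (SE 0.13, adjusted p = 0.00012) for TK and -0.44 (SE 0.12, adjusted p = 0.015) for TN. The TN call was lost without control A (0.054) or TN A (0.10), and without the set term, where the difference was -0.27 (adjusted p = 0.53). Without TN B it was -0.46 (adjusted p = 0.026). A2M was called higher in TN (3.96, SE 1.07, adjusted p = 0.016), with 86.1 CPM in TN B and at most 0.863 CPM in TN A, C and D. Without TN B it was -0.65 (SE 0.53, adjusted p = 0.45). The inhibitors of membrane serine proteases SPINT1 and SPINT2 were not called in any form.

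The clade B serpins next to SERPINB2 and SERPINB5 on chromosome 18 were mostly silent: 3 of 8 passed the filter. SERPINB8 was 0.83 (SE 0.10, adjusted p = 7.9e-06) above control for DB, 0.69 (SE 0.10, adjusted p = 8.2e-05) for COM, 0.58 (SE 0.10, adjusted p = 0.00054) for TN and 0.37 (SE 0.10, adjusted p = 0.016) for TK. The TK call was lost without TK C (0.092) and with length offsets (0.094). It was also lost within set 2, the only set with TK (0.30, adjusted p = 0.0725). For SPH the SERPINB8 difference was 0.39 (SE 0.10, adjusted p = 0.23). SERPINB7 was called higher in both bipyramid groups, by 0.85 (SE 0.14, adjusted p = 0.00016) for TK and 0.60 (SE 0.13, adjusted p = 0.0036) for TN, from 7.33 ± 1.74 CPM in controls. Its TN call was lost without the set term (0.054). Without TN B the TN values of SERPINB8 and SERPINB7 were 0.61 and 0.64, both called. Of the 5 other genes with the domain of the urokinase receptor, LYPD3 was called in DB (0.51, SE 0.12, adjusted p = 0.0072), a call lost without DB D (0.063), and LYPD5 was called lower in TK (-0.72, adjusted p = 0.035).

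**Figure D5:**
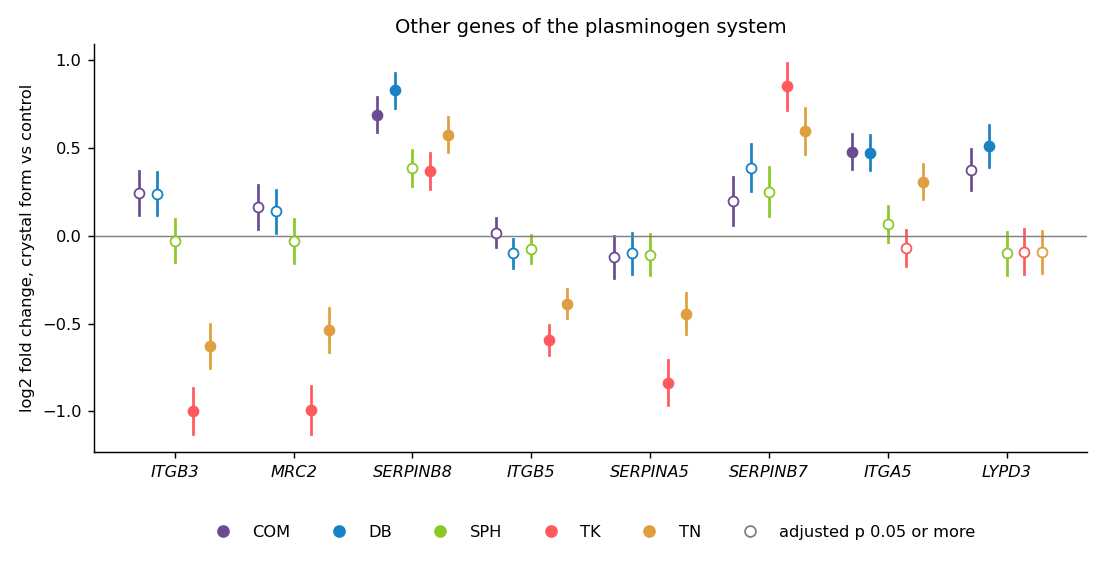
Log2 fold change against control, with bars of ±1 SE, of the 8 other genes of the plasminogen system with the smallest joint p, by crystal form; filled points passed an adjusted p of 0.05. ITGB3, MRC2, ITGB5 and SERPINA5 lie below 0 for TK and TN, and SERPINB8 lies above 0 for all 5 forms.

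Across the 27 libraries, with the mean of each library set removed from log2 CPM, the genes most like each member were named from 11125 genes that averaged 5 CPM or more, by Pearson's r and as a description only, since these libraries share their groups. PLAT was most like ITGB5 (r = 0.97), MRC2 (0.96) and TGM2 (0.96), the first pair of which are among the receptor partners above. PLAU was most like KLF5 (0.96), CDKN1A (0.92) and DAPP1 (0.92). Among the genes most like PLAUR were ITPKC (0.91) and GSN (0.91), and SERPINE2 was most like KRT6B (0.90), NRP2 (0.88) and L1CAM (0.86). SERPINB2 was most like SERPINB1 (0.90), SPRR2A (0.89) and LYPD3 (0.87), and SERPINB5 like LRAT (0.91), DSG3 (0.87) and ARRDC3 (0.86).

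Among the 6 members themselves, PLAU had r of 0.81 with SERPINE2, 0.80 with SERPINB5 and 0.75 with SERPINB2, and the 3 serpins had r of 0.71 to 0.86 with each other. PLAT had its highest r with PLAUR (0.76) and was near 0 with PLAU (0.036) and SERPINE2 (-0.077), over the same 27 libraries. PLAU and PLAUR had r of 0.50.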

How the data were processed

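RNA-seq was made from polyadenylated RNA of thawed samples of the 27 samples, with an NEBNext UltraExpress kit, per the labels' protocols. Each library came with a table by the authors that lists expected counts, effective lengths and TPM, per the file headers. Trim Galore, RSEM, Bowtie2 and the build GRCh38 are named in the submitters' processing notes. For versions, annotation release and strand the sources used here give nothing. RSEM splits reads that fit several genes.

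Expected counts were rounded to whole numbers. In R 4.3.3, edgeR 4.0.16 kept genes by filterByExpr, scaled libraries by TMM, and fitted 1 quasi-likelihood model over all 27 libraries with a mean per group and a library set term. SE is the size of the log2 fold change divided by the root of F. A second fit with 16 means, 1 per group and set, gave within-set values and the test of variation between sets; cells with 1 library were assumed to vary like the others. CPM uses TMM-scaled library sizes, and deposited TPM served to compare genes per length. The script was tested on simulated data. Sequences are RefSeq's. Alternatives were DESeq2 1.42.0, RLE scaling, length offsets, other filters, no set term, the title's letter as a block, TN C in set 1, and each library left out.

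The members, the lists and the library sets were chosen with earlier results of these data known. Pathway genes named by rule are the 8 called ones with the smallest joint p. A2M, LYPD5, SPINT1, SPINT2 and the docking genes were named outside it, after their values were seen. For each member the 3 genes of highest r are named, except 1 gene that is not reported here. Inhibitors of the activators outside these lists are not analysed here.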

Additional observations from a re-analysis of the deposited data

Results flagged for a closer look

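Among 36 sets of libraries (6 genes in 6 groups), 2 held a library far from the rest of its group, where chance marks about 1 in 20. PLAT stood at 510.5 CPM in COM C, against 1017 to 1101 CPM in the other COM libraries. COM C is the only COM library of set 2, in which PLAT of the controls was 564 to 671 CPM. PLAT stood at 765.9 CPM in TN D, against 411 to 472 CPM in the other TN libraries, a gap of 0.829 of the range that lies at the critical value of 0.829. TN D is the only TN library of set 3, in which the only control, G, held 995 CPM. The part of the library set in either value was not tested. No change of a crystal form's difference with the library set passed the test for these 6 genes.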

How the results depend on the processing

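Without the library set term 2 of the 6 genes were called for COM, 2 for TK and 1 for TN, in place of 4, 4 and 2. That fit turned the sign of PLAT for DB (0.0603), SERPINE2 and SERPINB5 for SPH (0.131 and 0.122), SERPINE2 and SERPINB2 for TK (-0.00334 and -0.969) and SERPINB2 for TN (0.248). With the letter of the title as a replicate block, in place of the set, the counts were again 2 for COM, 2 for TK and 1 for TN. Under that block PLAT was 0.00266 for DB, SERPINE2 0.0949 and SERPINB5 0.0415 for SPH, SERPINE2 -0.0112, SERPINB2 -0.808 and SERPINB5 -0.0408 for TK, and SERPINB2 0.198 for TN. What a shared letter stands for is not stated. Deviations of libraries that share a letter correlated at -0.158 to 0.446 within a set (median 0.171) and -0.0703 to 0.100 across sets (median 0.019). For libraries of different letters the medians were lower, at 0.101 within a set and -0.070 across sets. With TN C in set 1, SERPINE2 was -0.00253 and SERPINB5 -0.0946 for TN. With length offsets PLAT was -0.00887 for COM and 2 genes were called for TK. SERPINB5 for SPH, at -0.0017, became 0.00105 with RLE scaling, 4.21e-05 with no filter and 0.00113 in DESeq2, and with no filter 1 gene was called for SPH. Of the 24 calls between forms, 11 held without the set term, 14 with the letter block, 20 with TN C in set 1 and 18 with length offsets. Among the 11, those against TK include the gap between sets. The 4 for DB against SPH were lost without the set term and with the letter block (PLAU 0.36 and 0.129 as adjusted p). The cause of each change was not tested.

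Within set 2, 1 gene was called for COM and 1 for DB, and within set 3, 0 for COM, 3 for DB and 0 for TN, with 1 library of the form in each, so fewer samples. Signs turned there for COM in set 2 (PLAUR -0.0461, PLAT -0.22). For SPH they turned in set 1 (SERPINE2 0.148, SERPINB5 0.0623), set 2 (PLAUR -0.178) and set 3 (PLAUR -0.0423, SERPINB2 -0.0493, SERPINB5 0.0272). For TN they turned in set 1 (SERPINB5 -0.0596), set 2 (SERPINB2 0.368) and set 3 (PLAUR 0.0359, SERPINE2 -0.0532, SERPINB2 0.00692). Leaving out 1 library at a time moved PLAT for COM between -0.00596 and 0.196, PLAUR for SPH between -0.0603 and 0.0665, SERPINE2 for SPH between -0.0543 and 0.0154 and SERPINB5 for SPH between -0.0378 and 0.0723. It moved SERPINB2 for TN between -0.475 and 0.0446 and SERPINB5 for TN between -0.0924 and 0.169. None of these was called in its comparison in the fit over all 27 libraries. The number called for TK ran from 2 to 5 over these fits, for COM from 3 to 4, and for DB it was 5 in each.

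Over all genes, the calls numbered 1029 in COM, 1620 in DB, 18 in SPH, 2487 in TK, 1896 in TN and 3759 jointly. Without the set term these were 543 for COM, 915 for DB, 7 for SPH and 695 for TN, and with the letter block 367, 409, 2 and 396. Length offsets gave 656 for COM, 886 for DB, 1625 for TK, 1122 for TN and 2495 jointly. SPH had 136 with no filter and 41 in DESeq2. Within sets 1, 2 and 3 COM had 661, 81 and 16, DB 339, 85 and 368 and SPH 10, 9 and 1, and TN had 817 in set 2 and 16 in set 3. Leaving out 1 library gave as few as 531 for COM (without COM B), 760 for DB (without DB D), 3 for SPH (without SPH C), 1607 for TK (without TK C) and 745 for TN (without TN A). Of the genes of the 6 other lists, those called higher numbered 5 for COM, 7 for DB, 1 for SPH and 7 for TN with no filter, and 4 for COM in DESeq2. With the letter block they numbered 2 for DB and 1 for TN, with 1 lower for TN, and without the set term 2 higher and 2 lower for TN. The precision of these values is limited by 4 libraries per form, 1 control in set 3 and TK in set 2 only. Each of the 6 genes had at least 132 counts in every library.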
